A study of Mus musculus with 6 samples.

Results

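B cell nuclei of the fasted mouse liver were described from single-nucleus RNA counts, as 900 nuclei among the 26467 that passed a quality filter in 6 libraries, or 3.40%. A nucleus was a member if it held at least 500 genes and 1000 UMIs (unique molecular identifiers, 1 per captured RNA molecule), under 5% mitochondrial UMIs, and at least 4 UMIs summed over Pax5, Cd79a, Ighm, Ighd, Btla and Pou2af1. It also had under 0.3% of its UMIs from the hepatocyte genes Apob, Cps1, Abcb11 and Mat1a, and at most 2 UMIs of Stab2, Ptprb, Clec4f and Reln, which mark endothelial, Kupffer and stellate cells. Of 1011 nuclei with the B gene sum, the hepatocyte limit removed 32 and the other limit 79. The nuclei were thus chosen by the UMI counts of these genes, so the high level of the 6 B genes in the members is a description and not a result.

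The libraries came from 3 mice with a hepatic stellate cell knockout of Plvap and 3 littermate control mice, 1 library per mouse. Plvap encodes the protein of the diaphragms in endothelial fenestrae and caveolae. All 6 mice were males of 18 weeks on chow, fasted for 12 hours overnight, with the strain label C57BL/6JBomTac. The source label of both groups names the allele Plvaptm1.1Salm and the transgene Tg(Lrat-cre)1Rshw, in which Lrat, a gene of stellate cells, drives Cre, so B cells are not the targeted cells. The labels do not say whether control mice carried Cre. Replicate numbers name a mouse and pair none.

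B cells are lymphocytes that read antigen through a surface immunoglobulin, which Cd79a and Cd79b couple to kinases inside the cell. Pax5 and Ebf1 hold the lineage, and activated B cells can switch from IgM and IgD to IgG, IgE or IgA and become plasma cells. In the liver they lie in the sinusoids and the portal tracts, and plasma cells that secrete IgA are also found there.

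Libraries held 24367223, 24407803 and 23153182 UMIs in knockout mice 1 to 3, against 27182833, 27199466 and 25085392 in control mice 1 to 3. The members were shallow nuclei, with medians of 1884, 2172 and 2111 UMIs in knockout mice and 1896, 2298 and 2408 in control mice, where the groups overlapped (exact permutation test over mice, two-sided, p = 0.4). Macrophage nuclei in the same libraries had medians from 4199 to 5383 UMIs. Scrublet called 805 doublets among all nuclei and 3 among the members, which were kept. No cell barcode was shared between the B nuclei of 2 libraries, while 74 barcodes occurred in more than 1 library among all nuclei past the filter.

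The label held for most members but not for all. Of the 900 nuclei, 761 (84.6%) also held at least 4 UMIs of 8 B cell genes outside the rule, among them Bank1, Ms4a1, Cd79b, Cd22, Fcrl1, Fcer2a and Cr2. These 761 are called core B nuclei below. A further 24 nuclei held 1 to 3 such UMIs and 115 held none. Among the 139 nuclei that were not core, 25 held at least 4 UMIs of 6 T cell genes, 60 of 5 plasmacytoid dendritic cell genes (Siglech and others), 18 of 6 plasma cell genes (Jchain and others) and 43 of an 8-gene set around Clec9a and Xcr1, and 16 reached 4 UMIs in no set. A nucleus could count in more than 1 set. The Clec9a set was chosen after the data were seen, and Clec9a itself was at 201 CPM in macrophage nuclei, so that set is less selective than Xcr1, at 36.0 CPM in B nuclei and 0.33 CPM in macrophage nuclei. Here CPM is UMIs of a gene per 1000000 UMIs summed over the nuclei of a class in a mouse, averaged over the 6 mice.

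Bank1, a scaffold protein of the B cell receptor pathway, was no selective marker in these livers. A Bank1 UMI was found in 85.0% of the members, at 4340 CPM, and in 93.3% of 4799 macrophage nuclei, at 1331 CPM. Without Bank1, 745 of the 761 core nuclei (97.9%) still held at least 1 UMI of the 7 remaining genes and 647 held at least 3, while 121 of the 139 other members held none. The 7 genes alone, with a sum of at least 4 and the same limits, picked 557 nuclei, of which 545 (97.8%) were members by the rule. They reached only 60.6% of the members. At the edge of the rule, 18 of 60 nuclei with a sum of exactly 4 were core (30%), and 10 of 77 nuclei with a sum of 3, just outside, held 4 UMIs of the 8 genes (12.99%).

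The share of members that were not core was 12.3%, 16.4% and 12.6% in knockout mice 1 to 3, against 11.8%, 30% and 16.0% in control mice 1 to 3. Control 2 stood highest, with 30 of its 100 members, and the groups overlapped. Plasmacytoid genes marked 11 of 154, 14 of 159 and 17 of 254 members in knockout mice 1 to 3. In control mice 1 to 3 they marked 7 of 127, 10 of 100 and 3 of 106. As shares of the members the groups overlapped, with control 2 highest.

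**Figure D1:**
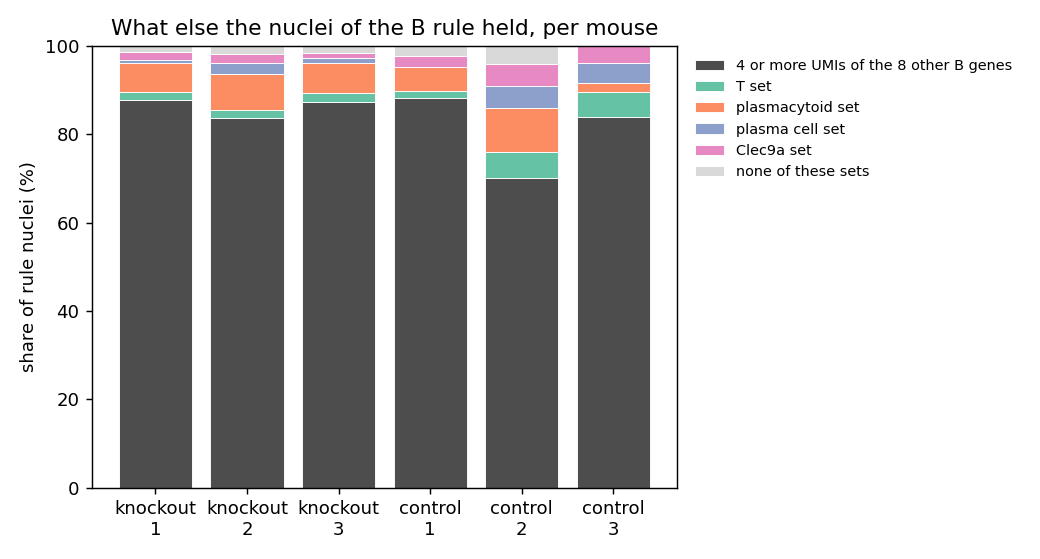
Share (%) of the rule nuclei of each mouse, knockout mice left, that held at least 4 UMIs of the 8 other B genes (dark) or, if not, of the T, plasmacytoid, plasma cell or Clec9a set, assigned in that order. The dark part covers 84.6% of all members and is lowest in control 2, where 30% of the members lie outside it.

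The genes that stood out in the members, beyond the rule, included surface receptors, transcription factors and light chain genes known from B cells. The 20 leading genes by the ratio of CPM in members to CPM in all other nuclei included, in order, Chst3, Siglecg, Klhl14, Ms4a1, Cacna1i, Ebf1, B3gnt5, Tnfrsf13c, Ccr6, Il5ra, H2-Ob, Iglc2, Clec2g, Fcer2a, Iglc3, Fcmr, Bcl11a, Cd79b and Iglc1. Ebf1, a transcription factor of the B lineage, was the most abundant of them at 7536 ± 963 CPM (SD over 6 mice), against 27.9 ± 12.7 CPM in all other nuclei. Ms4a1, which encodes CD20, had 295 ± 42.3 CPM in members and 1.05 ± 0.72 CPM in the rest. Tnfrsf13c, the receptor for the survival factor BAFF, had 56.6 ± 17.1 CPM in members and 0.22 ± 0.11 CPM in the rest. Fcmr, the receptor for IgM, had 127 ± 32.7 CPM against 0.77 ± 0.50 CPM. Since the rule chose nuclei by their genes, these ratios carry no test.

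Several leading genes were shared with other immune nuclei. Bcl11a, a transcription factor also known from plasmacytoid dendritic cells, was at 1239 CPM in members and at 1944 CPM in the 67 plasmacytoid nuclei outside the rule. Chst3 reached 73.8 CPM and Siglecg 75.7 CPM in those nuclei, while in T nuclei they were at 0.64 and 0 CPM and in macrophage nuclei at 0.26 and 0 CPM. Siglech, a plasmacytoid marker, was at 405 CPM over all members and at 0 CPM in the core nuclei, while Ebf1 was at 10198 CPM in the core nuclei and at 2.05 CPM in plasmacytoid nuclei outside the rule.

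**Figure D2:**
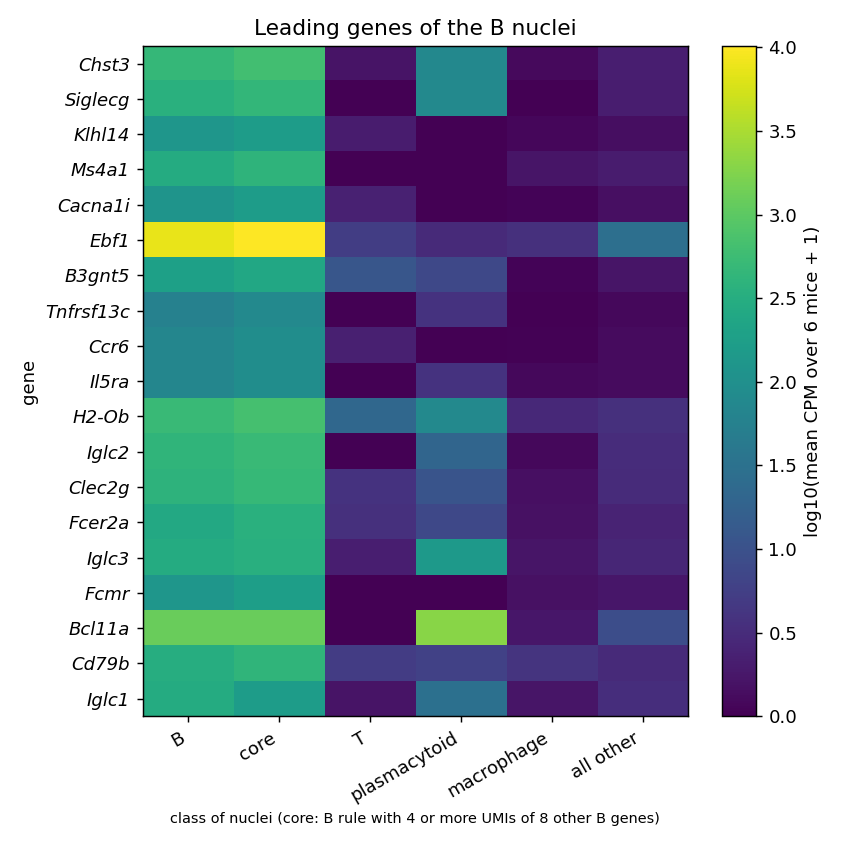
Mean level over the 6 mice, as log10(CPM + 1), of the leading genes named above in B rule nuclei, core B nuclei, T, plasmacytoid, macrophage and all other nuclei. The B and core columns are high in every row, and Bcl11a is high both in B nuclei (1239 CPM) and in plasmacytoid nuclei (1944 CPM).

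Of the rule genes, Btla was detected most often, in 88.7% of members, then Ighm in 80.1%, Pax5 in 79.4%, Ighd in 74.3%, Cd79a in 61.6% and Pou2af1 in 53.3%. Macrophage nuclei should lack these genes and were deeper (median UMIs 2011 in core and 4805 in macrophage nuclei). There the shares ran from 0.10% for Pax5 to 1.27% for Btla. Macrophage nuclei had to hold a B gene sum under 4, and the rule genes make up that sum. The gate thus capped these shares, so their low values are no free check of how selective the genes are. Btla encodes an inhibitory lymphocyte receptor that T cells also carry, and it gave 48.7% of the rule UMIs in the nuclei that were not core, against 36.8% in core nuclei.

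In core nuclei most heavy chain constant UMIs were of unswitched genes, and UMIs of both light chain classes were present. An Ighm or Ighd UMI was present in 735 of the 761 core nuclei (96.6%), but these 2 genes are in the rule, so nuclei that lost them were selected against. IgM and IgD come from 1 primary transcript by splicing, and in nuclei the UMIs of Ighm and Ighd do not tell which protein the cell made. A UMI of any switched gene (Ighg1, Ighg2b, Ighg2c, Ighg3 or Igha, with Ighe at 0 UMIs) was present in 32 core nuclei (4.20%). An Igha UMI was seen in 3.42% of core nuclei and in 3.10% of the deeper macrophage nuclei, at levels of 25.1 CPM in core and 7.07 CPM in macrophage nuclei.

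Igha was concentrated in a few members. The 19 members with at least 4 UMIs of the plasma cell set held 576 of the 621 Igha UMIs of all members (92.8%), with a median of 29 and a maximum of 70 per nucleus. Among all nuclei past the filter, 38 had at least 4 UMIs of the plasma cell set and of Igha. The rule took in 17 of them, 18 fell below the rule's sum and 3 were removed by its limits. The switched share of heavy chain constant UMIs followed these nuclei, at 6.11%, 22.9% and 3.39% in knockout mice 1 to 3, against 1.13%, 29.3% and 23.9% in control mice 1 to 3. The groups overlapped, the mean difference was -7.32 percentage points, and the exact two-sided permutation p was 0.6. In core nuclei alone the shares were 2.54%, 2.31% and 0.89% in knockout mice and 1.21%, 0.79% and 1.51% in control mice, with a difference of 0.74 points (exact permutation p = 0.3). Both shares are taken over Ighm and Ighd UMIs too, and these are rule genes. Nuclei that lost them were selected against, so neither test measures switching free of the rule.

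Light chain RNA was counted as Igkc for kappa and as Iglc1, Iglc2 and Iglc3 for lambda. The 3 lambda genes lie on the minus strand of chromosome 16 in mm10 (GENCODE M21), Iglc2 at chr16:19198396-19200351, Iglc3 at chr16:19065230-19065681 and Iglc1 at chr16:19061618-19062071. Their last 90 coding bases before the stop codon are shown because a 3′ library reads this end and the copies can share reads, with capitals for bases that differ from Iglc2.
Iglc2: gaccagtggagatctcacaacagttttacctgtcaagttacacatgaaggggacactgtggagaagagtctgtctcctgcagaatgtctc
Iglc3: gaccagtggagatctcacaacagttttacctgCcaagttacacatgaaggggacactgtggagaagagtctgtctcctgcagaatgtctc
Iglc1: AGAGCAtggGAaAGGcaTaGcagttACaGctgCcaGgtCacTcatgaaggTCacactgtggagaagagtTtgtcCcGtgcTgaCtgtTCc
Iglc3 differs from Iglc2 at 1 base of this stretch and is 96.2% identical over the coding part, so the split of UMIs between Iglc2 and Iglc3 is uncertain. Iglc1 differs at 29 bases and is 73.4% identical. The sum over the 3 genes does not depend on that split.

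In core nuclei, 443 of 761 (58.2%) held both kappa and lambda UMIs, 117 kappa alone, 162 lambda alone and 39 neither. Single core nuclei held up to 13 Igkc and 15 lambda UMIs. A kappa UMI was present in 73.6% of core nuclei and 5.86% of macrophage nuclei, and a lambda UMI in 79.5% of core nuclei and 0.75% of macrophage nuclei. The origin of the double-positive nuclei was not tested, nor was which light chain protein the cells made.

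Over all members, the lambda share of light chain UMIs was 57.8%, 53.1% and 49.7% in knockout mice 1 to 3, against 57.3%, 35.7% and 55.3% in control mice 1 to 3, with overlap and an exact two-sided permutation p of 0.8. In core nuclei it was 55.3%, 56.1% and 54.8% in knockout mice and 57.3%, 57.7% and 57.7% in control mice. There the groups did not overlap, the knockout mean was 2.15 percentage points lower, and the exact p was 0.1, the smallest that 3 against 3 mice allow. The direction was thus the opposite of that over all members, where the knockout mean was 4.13 points higher (-2.75 points without control 2).

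B nuclei made up a larger share of all nuclei in each knockout liver than in any control liver. The members were 154 of 4562, 159 of 4204 and 254 of 4109 nuclei in knockout mice 1 to 3, against 127 of 5172, 100 of 4812 and 106 of 3608 in control mice 1 to 3. The shares were 3.38%, 3.78% and 6.18% in knockout mice and 2.46%, 2.08% and 2.94% in control mice. The 3 knockout mice all lay above the 3 control mice, and knockout 3 stood apart from the other knockout mice. The mean was 4.45 ± 1.52% in knockout mice and 2.49 ± 0.43% in control mice (SD, n = 3 each), a difference of 1.956 percentage points. The exact two-sided permutation test over mice gave p = 0.1, the smallest that 3 against 3 allow, and 0.5 after Benjamini-Hochberg adjustment over the 5 comparisons made this way. Without knockout 3 the difference was 1.09 points.

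Counting error alone left the nearest mice close. Knockout 1 had a 95% exact binomial interval of 2.87% to 3.94% and control 3 one of 2.41% to 3.54%, and such intervals cover counting error only. With a floor of 500 UMIs in place of 1000 and the 500-gene floor kept, the shares were 3.67%, 3.92% and 6.54% in knockout mice and 2.81%, 2.44% and 3.01% in control mice. The groups again did not overlap, with a difference of 1.958 points (exact permutation p = 0.1).

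The groups also stayed apart without Btla, without the nuclei that were not core, and with other B genes. Without Btla in the sum, the shares were 3.07%, 3.33% and 5.55% in knockout mice and 2.09%, 1.64% and 2.61% in control mice. Core nuclei were 2.96%, 3.16% and 5.40% in knockout mice and 2.17%, 1.45% and 2.47% in control mice. The 7 other B genes alone gave 2.02%, 2.33% and 4.36% in knockout mice and 1.35%, 1.08% and 1.83% in control mice. These definitions share most of their nuclei and all of their mice, so they are no independent evidence. More B cells in the tissue and better recovery of their nuclei cannot be told apart in such shares.

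**Figure D3:**
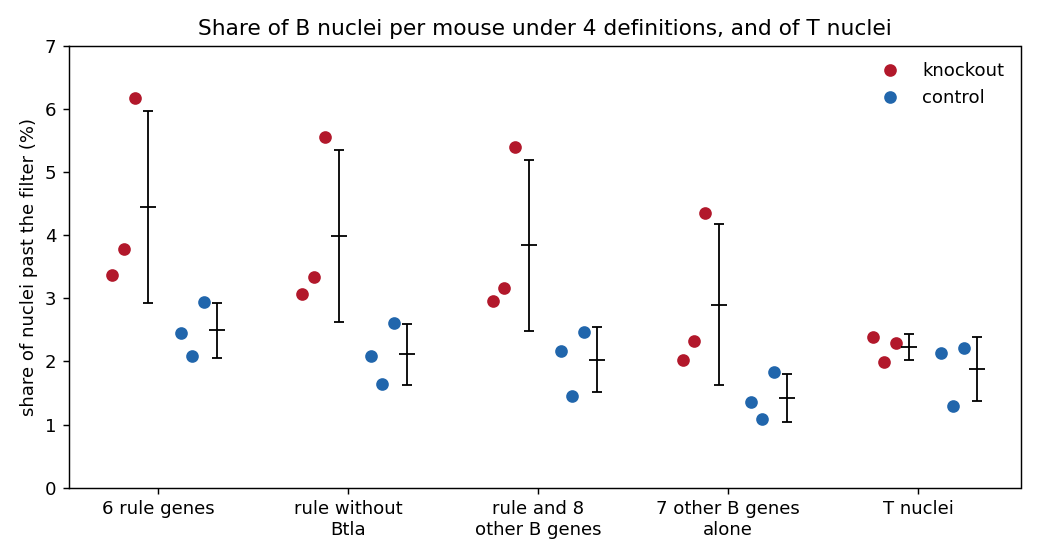
Share (%) of nuclei past the filter per mouse (points), with mean and SD (black), for B nuclei under 4 definitions and for T nuclei, knockout left of control. Under the rule the knockout mice lie between 3.38% and 6.18% and the control mice between 2.08% and 2.94%, whereas the T shares overlap.

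T nuclei, gated with 6 T cell genes, the same limits and a B gene sum under 4, did not separate the groups. They were 2.39%, 1.998% and 2.29% of nuclei in knockout mice and 2.13%, 1.29% and 2.22% in control mice (exact permutation p = 0.4). The number of B nuclei per T nucleus was 1.41, 1.89 and 2.70 in knockout mice and 1.15, 1.61 and 1.33 in control mice, where knockout 1 fell among the control mice. The mean log2 ratio was 0.52 higher in knockout mice, with an exact two-sided permutation p of 0.2 (0.5 adjusted over the 5 comparisons), and 0.28 higher without knockout 3. With core nuclei the ratio was 1.24, 1.58 and 2.36 in knockout mice and 1.02, 1.13 and 1.11 in control mice, without overlap and with p = 0.1 in the exact permutation test. Per 100 macrophage nuclei there were 20, 21.1 and 31.9 B nuclei in knockout mice and 12.999, 11.8 and 16.1 in control mice.

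Few genes passed the test between the genotypes in the members, which does not show that the other genes were alike. UMIs were summed over the B nuclei of each mouse, and of 5911 genes tested by edgeR's quasi-likelihood test 1 was higher (0.0169%) and 1 lower (0.0169%) in knockout mice, or 0.0338% in both directions, at a Benjamini-Hochberg adjusted p under 0.05. Both are hepatocyte transcripts, Alb (albumin) and Mup17 (a major urinary protein), and neither is a gene of B cells. At an unadjusted p under 0.05 there were 196 genes (3.32%). The knockout mice all lay above the control mice in 4.33% and all below in 4.42% of the genes tested. DESeq2 called the same 2 genes, and no gene of the B cell lists passed in either test. With no filter on low counts, edgeR called Pim1 of the survival list and Prdm1 of the plasma cell list lower.

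In CPM on TMM-scaled library sizes, Alb was at 1254, 1254 and 1587 in knockout mice, against 658, 522 and 488 in control mice. The groups did not overlap, and the log2 fold change was 1.30 (SE 0.16, adjusted p = 0.000852 in edgeR). Mup17 was at 163, 138 and 125 CPM in knockout mice, against 257, 380 and 439 CPM in control mice, also without overlap. Its log2 fold change was -1.35 (SE 0.21, adjusted p = 0.0101 in edgeR), and the call was lost without knockout 2, knockout 3 or control 3 (adjusted p from 0.105 to 0.178). Mup17 is 98.9% identical in its coding bases to its nearest copy, and 9 of 21 other Mup genes are at least 95% identical, so its UMIs may in part be those of a relative.

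Both genes had the same sign in T nuclei. Alb had a log2 fold change of 0.82 (SE 0.17) and Mup17 one of -1.65 (SE 0.37) in T nuclei of the same libraries, where no gene passed. The difference between B and T nuclei had an adjusted p of 1 for each gene in edgeR's test of the class by genotype term. For Alb it was 0.48 (SE 0.22, unadjusted p = 0.0486 in edgeR) and for Mup17 0.25 (SE 0.32). Alb in macrophage nuclei was at 530, 618 and 734 CPM in knockout mice and 269, 292 and 286 CPM in control mice. Mup17 was there at 57.3, 87.2 and 60.6 CPM in knockout mice and 87.6, 175 and 199 CPM in control mice. The groups did not overlap for either gene there, and neither was tested. The list of 27 abundant hepatocyte transcripts, all of them tested, had 21 members above 0 and 6 below, with a median log2 fold change of 0.43, against -0.00 over all genes tested. In 10 of the 27 the knockout mice all lay above the control mice, against 4.33% of all genes. Cps1 of this list counts in the rule's hepatocyte limit, so the selection capped its level in the members. Summed over the list, the members held 6556, 7219 and 8493 CPM in knockout mice and 5239, 5614 and 5686 CPM in control mice. All other nuclei held 14955, 16432 and 19894 CPM in knockout mice and 11841, 12555 and 19090 CPM in control mice, with overlap.

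**Figure D4:**
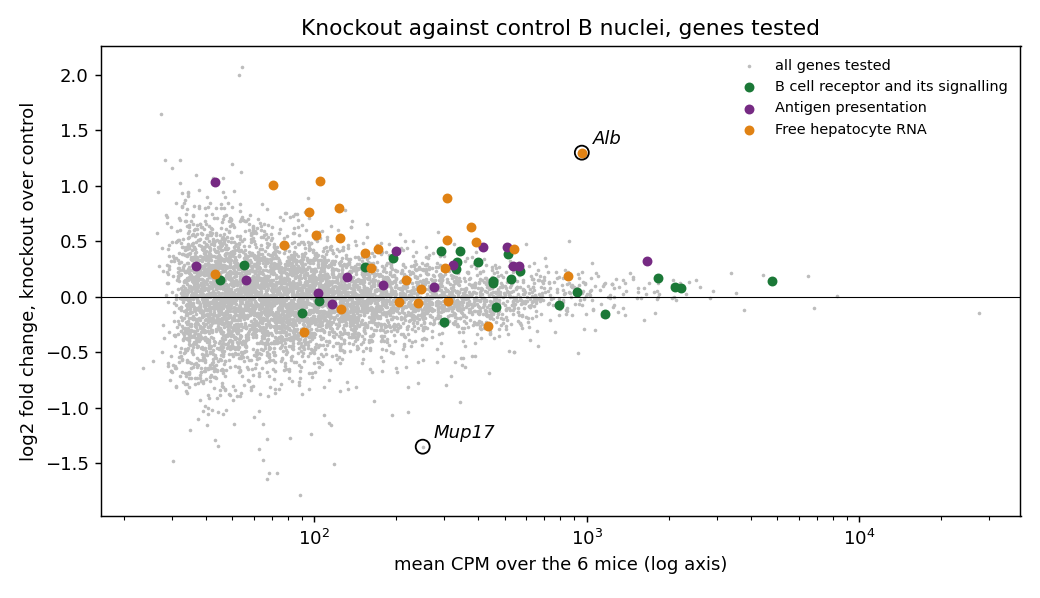
Log2 fold change, knockout over control, against mean CPM (log axis) for the genes tested in B nuclei, with 3 gene lists in colour. Alb at 1.30 and Mup17 at -1.35 are circled. The receptor genes run from -0.22 to 0.41 and the antigen presentation genes from -0.065 to 1.03, with 14 of 15 above 0.

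Next by unadjusted p, and not passing, came 5 genes per direction. Upward these were Serpina1a, Serpina1e, Apoa1 and Fga, all made by hepatocytes, and Socs4, with log2 fold changes of 1.05, 0.89, 0.63, 1.013 and 1.20 (SE 0.27, 0.24, 0.18, 0.30 and 0.35). Downward these were Plcxd2, Arsb, Nmnat3, Pim1 and Mup18, at -1.59, -0.81, -1.28, -1.16 and -1.37 (SE 0.31, 0.19, 0.33, 0.29 and 0.36). Adjusted p in edgeR ran from 0.139 to 1.00 over the 10 genes. Pim1, a kinase that promotes lymphocyte survival, was at 56.6, 88.0 and 69.9 CPM in knockout mice, against 96.2, 154 and 229 CPM in control mice. Arsb, a lysosomal sulfatase, was at -0.81 in all members and at 0.041 in the core nuclei. Klrk1, a receptor of NK and T cells singled out once its level was known, was at 34.6, 22.0 and 39.4 CPM in knockout mice and at 40.1, 154 and 113 CPM in control mice. Klrk1 averaged 12.8 CPM in core nuclei and 677 CPM in T nuclei, and members with the T set numbered 4, 3 and 6 in knockout mice and 2, 6 and 7 in control mice.

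The B cell receptor list (receptor subunits, co-receptors and the kinases behind them) had 25 genes, all tested, with 0 passing, 19 above 0 and a median log2 fold change of 0.16. In core nuclei the median was 0.06. The list holds the rule gene Cd79a and also Bank1, which helped to choose the core nuclei, so neither median is free of the selection. Cd79a, the signalling subunit and a rule gene, was at 566, 564 and 613 CPM in knockout mice and 489, 356 and 488 CPM in control mice. The groups did not overlap, and its log2 fold change was 0.39 (SE 0.16, unadjusted p = 0.0248, adjusted p = 1.00 in edgeR). The kinases Lyn, at 2176 ± 199 CPM in knockout mice and 2051 ± 230 CPM in control mice, and Prkcb, at 2285 ± 164 and 2167 ± 451 CPM in the same order, were the most abundant members with Bank1. Bank1 was at 5028 ± 297 CPM in knockout mice and 4544 ± 979 CPM in control mice.

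Of 24 transcription factors of the lineage, all tested, 0 passed, 13 were above 0 and the median was 0.015 (-0.025 in core nuclei). Ebf1 was at 8336 ± 1076 CPM in knockout mice and 8295 ± 1322 CPM in control mice. Foxp1, which keeps follicular B cells, was at 6922 ± 642 CPM in knockout mice and 6062 ± 816 CPM in control mice. Bach2, which restrains plasma cell fate, was at 4754 ± 420 CPM in knockout mice and 4146 ± 868 CPM in control mice.

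No antigen presentation gene passed. Of 15 tested, 14 were above 0 with a median of 0.28, and the median in core nuclei was 0.17. Cd74, the invariant chain of MHC class II, was at 1502, 1879 and 2152 CPM in knockout mice and 1432, 1562 and 1429 CPM in control mice, which overlapped (log2 fold change 0.33, SE 0.15, adjusted p = 1.00 in edgeR). H2-Ob was at 618 ± 139 CPM in knockout mice and 513 ± 29.1 CPM in control mice, and H2-Aa at 585 ± 133 CPM in knockout mice and 484 ± 49.9 CPM in control mice. The MHC class I gene H2-K1 was singled out once its level was known. It had 855, 971 and 1208 CPM in knockout mice and 730, 743 and 668 CPM in control mice without overlap, with a log2 fold change of 0.51 (SE 0.15, adjusted p = 1.00 in edgeR). Class I genes resemble each other, so its UMIs are uncertain.

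Survival genes had 12 tested, 5 above 0 and 7 below, with a median of -0.08 (-0.17 in core nuclei). The knockout mice all lay below the control mice in 3 of the 12 and above in 1. Over all genes tested these shares were 4.42% and 4.33%. The summed list was at 3097, 3036 and 3091 CPM in knockout mice and 3413, 3223 and 3747 CPM in control mice. In core nuclei it was at 3277, 3148 and 3308 CPM in knockout mice and 3621, 3677 and 3507 CPM in control mice. The groups did not overlap in either sum, and neither was tested. Bcl2, which blocks apoptosis, was at 792, 693 and 812 CPM in knockout mice, against 866, 937 and 1459 CPM in control mice without overlap, at -0.51 (SE 0.18, adjusted p = 1.00 in edgeR). Among follicular genes (7 tested, 6 above 0, median 0.20), Fcer2a, the low-affinity IgE receptor CD23 and likewise singled out, was at 355, 349 and 324 CPM in knockout mice and 269, 229 and 188 CPM in control mice, without overlap and without passing (0.58, SE 0.18, adjusted p = 1.00 in edgeR). Homing genes (17 tested, 11 above 0) had a median of 0.04 (-0.076 in core nuclei), with Dock2, which drives lymphocyte migration, at 2956 ± 78.3 CPM in knockout mice and 2853 ± 120 CPM in control mice.

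Subset and state lists were thin at this depth. Marginal zone genes (5 of 8 tested) had a median of -0.45, B1 genes (2 of 10) -0.08, germinal centre genes (1 of 9) 0.07, memory genes (2 of 9) 0.02 and immature genes (1 of 11) -0.33, with Vpreb2, Igll1 and Rag1 at 0 UMIs. In core nuclei these medians were -0.31 (2 tested), 0.34, 0.12, 0.035 and -0.80 in the same order, so the sign of the B1 median turned. Plasma cell genes (7 of 12) had a median of -0.54 over all members and -0.02 in core nuclei, where 3 were tested. Jchain, which joins IgA and IgM units, was at 78.6, 245 and 59.1 CPM in knockout mice and 12.0, 324 and 439 CPM in control mice with overlap (-1.06, SE 1.15). Cell cycle genes (2 of 14) were at -0.43 over all members and -0.096 in core nuclei, immunoglobulin constant genes (7 of 12) at 0.045 and 0.13, and immediate early genes (6 of 15) at -0.17 and -0.23. Ighm and Ighd of the constant list are rule genes.

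No gene passed in the lists for the fasted state. Insulin, FOXO and nutrient sensing genes (13 of 16 tested) had a median of 0.01, fatty acid genes (13 of 18) one of 0.00 with Pdk4 at 0 UMIs, interferon genes (11 of 23) one of -0.02 and glucocorticoid genes (6 of 12) one of -0.12, with 0 passing in each. In core nuclei the medians of the insulin and interferon lists were -0.018 and 0.027, with the sign turned in both. Acsl1, which activates fatty acids, was at 129, 124 and 86.0 CPM in knockout mice and 84.2, 75.1 and 60.01 CPM in control mice without overlap, at 0.60 (SE 0.27, adjusted p = 1.00 in edgeR). Foxo1 was at 493 ± 58.4 CPM in knockout mice and 495 ± 124 CPM in control mice.

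No marker of other cells passed in the members, and Skap1, an adaptor of T cells, passed as lower without control 1. Medians were -0.32 for T genes (6 tested), -0.02 for plasmacytoid genes (5), 0.16 for macrophage genes (4), -0.02 for sinusoidal endothelial genes (3) and -0.11 for the 1 stellate gene tested, Dcn. Clec4f of the macrophage list and Stab2 of the endothelial list count in the rule's limit of at most 2 UMIs. The selection thus capped both in the members, so their part in these medians is no free measure. In core nuclei 1 T gene and 1 plasmacytoid gene remained in the test, at 0.43 and 0.29. Of the red cell and blood myeloid list, 0 of 9 genes were frequent enough to test. Plvap itself had 8 UMIs over all members, so B nuclei do not check the knockout. Of the genes called in stellate nuclei in an earlier look at these data, Rbm46 had 2 UMIs, Rbm46os 11, Gm30097 3, Gm15663 and Gm12153 1 each, and Tmtc2 was at 75.4, 22.0 and 73.5 CPM in knockout mice and 40.1, 94.9 and 3.75 CPM in control mice.

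No gene passed the test of a different knockout effect in B and T nuclei. edgeR called 0 of 7367 genes (0.0%) in the class by genotype term with the mouse in the model, and 183 genes (2.48%) had an unadjusted p under 0.05. DESeq2 was not run for this term. Without control 1, edgeR called 5 genes, all with the lower knockout effect in B nuclei: Airn, Klrk1, Meg3, Plcxd2 and Tox.

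Some genes differed between mice across the genotypes. In core nuclei, 2295 named genes with at least 150 UMIs were ranked by their variance between the 6 mice in excess of counting error, with the genotype unused. Fkbp5 stood first. It encodes a co-chaperone that glucocorticoids induce. Its level in core nuclei was 160, 52.6 and 515 CPM in knockout mice 1 to 3 and 55.1, 678 and 499 CPM in control mice 1 to 3. Knockout 3, control 2 and control 3 were high, and the other 3 mice were low, so the genotypes overlapped (log2 fold change over all members -0.69, SE 1.14, adjusted p = 1.00 in edgeR).

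The same 3 mice lay above the other 3 for 6 other genes among the 20 that varied most, and below them for 1, Dnaja1. The share of all 2295 ranked genes with this split is not given, so these counts have no background beside them. The 6 are Ptpn22, Sorl1, Btla, Ccnd3, Cd200 and Cps1, and all were singled out after their values were seen. Ptpn22, a phosphatase that damps lymphocyte receptor signals, was at 421, 295 and 958 CPM in knockout mice and 276, 1219 and 1068 CPM in control mice. Sorl1, a sorting receptor, was at 566, 411 and 1020 CPM in knockout mice and 391, 1039 and 1194 CPM in control mice. Btla, the rule gene, was at 2098, 1797 and 4664 CPM in knockout mice and 1857, 3216 and 3553 CPM in control mice. Ccnd3, a cyclin of dividing lymphocytes, was at 3350, 1980 and 5939 CPM in knockout mice and 2376, 5561 and 5269 CPM in control mice. Cd200, an inhibitory surface ligand, was at 116, 112 and 160 CPM in knockout mice and 50.6, 143 and 261 CPM in control mice. Cps1, a hepatocyte gene of the rule's limit, was at 50.8, 66.7 and 108 CPM in knockout mice and 41.4, 106 and 191 CPM in control mice.

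The same split of the mice was present for some of these genes in other nuclei. In macrophage nuclei, Fkbp5 was at 569, 327 and 2212 CPM in knockout mice and 209, 2512 and 2464 CPM in control mice, with the same 3 mice high. Ccnd3 followed the same order of high and low mice in T nuclei, at 3026, 1822 and 5532 CPM in knockout mice and 1747, 4836 and 4702 CPM in control mice. Btla in T nuclei was at 233, 165 and 196 CPM in knockout mice and 171, 208 and 196 CPM in control mice, with no such split. T nuclei had to hold a B gene sum under 4, and Btla counts in that sum. The gate thus capped Btla in T nuclei, so these values cannot show whether T cells followed the split. Ptpn22 in T nuclei was at 1417, 1292 and 1638 CPM in knockout mice and 1005, 1844 and 1782 CPM in control mice, with the same 3 mice high. Ptpn22 in macrophage nuclei ran from 131 to 176 CPM over the 6 mice. Tsc22d3, another glucocorticoid-induced gene, was at 352, 402 and 382 CPM in knockout mice and 353, 364 and 409 CPM in control mice over all members. It is 1 of the 12 glucocorticoid genes, and its values are on TMM-scaled sizes. In core nuclei the summed list, Fkbp5 included, was at 1285, 1214 and 1725 CPM in knockout mice. In control mice the sum was at 1209, 1953 and 1833 CPM, so the same 3 mice were high. The sum without Fkbp5 is not given. The labels give no date or batch that would set these mice apart.

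**Figure D5:**
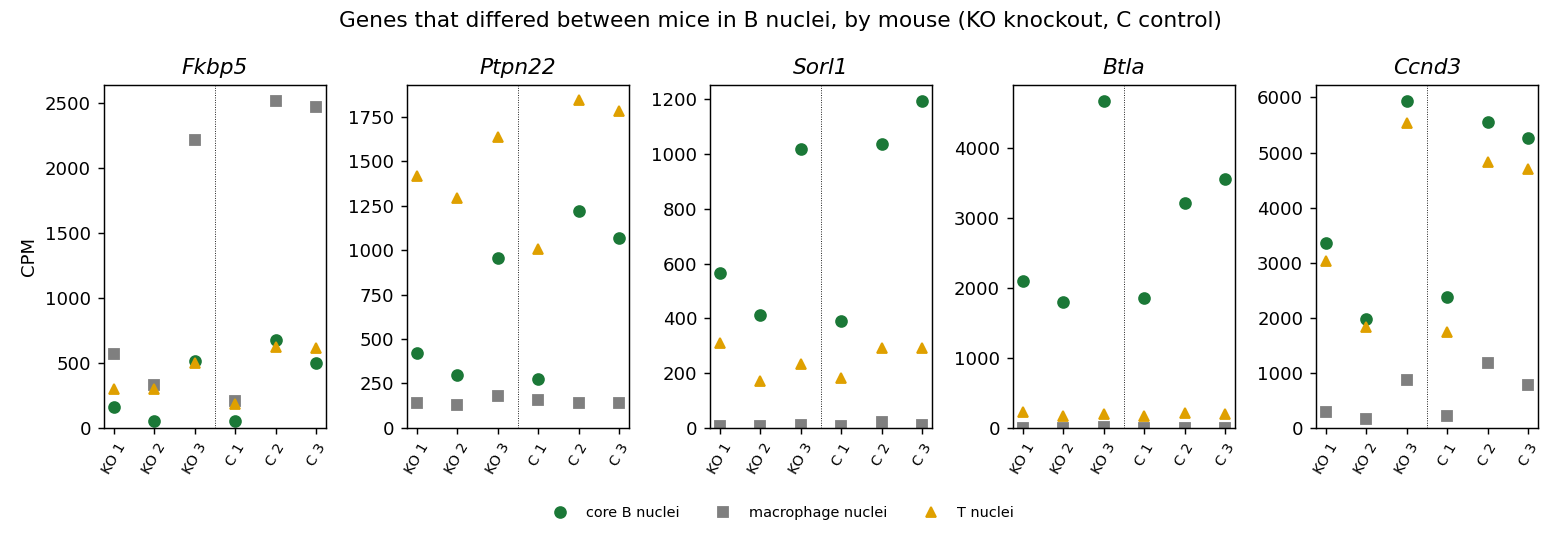
Level (CPM) of 5 genes in core B, macrophage and T nuclei of each mouse, knockout mice (KO) left of control mice (C). In core B nuclei KO 3, C 2 and C 3 are high for all 5 genes, for Fkbp5 at 515, 678 and 499 CPM, and KO 1, KO 2 and C 1 are low.

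Because Btla is in the rule, a mouse with more Btla can gain members. The median rule sum of a member was 12, 13 and 19 UMIs in knockout mice 1 to 3 and 11, 14 and 17 in control mice 1 to 3. Without Btla, knockout 3 still had the highest share at 5.55%, against 3.07% and 3.33% in the other knockout mice. The mitochondrial share of a member's UMIs had medians of 0.34%, 0.32% and 0.33% in knockout mice and 0.31%, 0.27% and 0.24% in control mice, without overlap, and its part in the results was not tested.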

How the data were processed

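Nuclei of 6 livers were profiled with the Chromium Next GEM 3′ kit version 3.1, per the labels. Reads were counted on mm10 with Cell Ranger, version 7.0.1 per the submitters' processing notes and 7.1.0 per the file headers. The sources used here give neither the use of intronic reads nor that of strand. Raw UMI counts for 32285 features were deposited by the authors. Groups came from the genotype label.

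Counts were summed per mouse over each class, since the mouse is the replicate, and p-values measure the spread between these mice. T and macrophage nuclei needed at least 4 UMIs of 6 T or 6 macrophage genes. Both also needed a B gene sum under 4 and under 0.3% of UMIs from the hepatocyte genes, and macrophage nuclei a T gene sum under 4. Genes were tested with edgeR 4.0.16 (TMM, filterByExpr, robust quasi-likelihood, Benjamini-Hochberg over all genes tested, threshold 0.05) and, as an alternative, DESeq2 1.42.0. Single values were compared by exact permutation over mice (scipy 1.17.1). Scrublet ran in scanpy 1.11.5 with an expected rate of 0.06. The gene test was checked on simulated counts with 1 common dispersion. It recovered 63.2% of 95 genes changed by a log2 fold change of 1 and 96.3% of 81 genes changed by 2. It also called 7 of 5452 unchanged genes. Changes of the smaller size can thus be missed.

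Knockout over control levels are CPM on TMM-scaled sizes, and levels between classes are CPM of all UMIs. Named in the text are the rule genes, the 20 leading genes with at least 50 CPM, genes that passed without overlap between groups (at least 10 CPM), the next 5 by p, and members of each of 27 lists with the smallest adjusted p or highest level. Outside this rule, Klrk1, Fcer2a, H2-K1 and the genes given for differences between mice were chosen after their values were seen. Fold changes are given for part of these. The members and lists were chosen with earlier results of these data known. Coding bases came from GENCODE M21 (mm10). Results for 1 gene are not reported here.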

Additional observations from a re-analysis of the deposited data

How the results depend on the processing

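The B share was higher in knockout mice under every other definition tried, from 1.48 points (7 other B genes) to 2.27 (share of nuclei low in hepatocyte genes), and from 1.09 to 2.49 points with 1 mouse left out. The log2 ratio of B to T nuclei stayed above 0 in every alternative and ranged from 0.28 to 0.74 with 1 mouse left out. Its exact permutation p was 0.1 without Btla, in core nuclei and with the 7 genes. The difference in median UMIs ranged from -297 to -41.3 with 1 mouse left out. The lambda difference was -2.15 points in core nuclei and ran from -2.75 (without control 2) to 8.05 with 1 mouse left out. The switched difference was 0.74 points in core nuclei and ran from -15.8 to -1.71 with 1 mouse left out. The cause of these reversals was not tested. With no filter on low counts 4 genes were higher, 11 lower and 1 differed between B and T nuclei. Without the hepatocyte list 0 were higher, because Alb was removed. Leaving out 1 mouse gave 1 to 2 higher genes, 0 to 5 lower genes and 0 to 5 that differed between B and T nuclei. Alb kept its call with each mouse left out. Mup17 was at -1.33, -1.25 and -1.17 without knockout 2, knockout 3 and control 3, and did not pass there. Plcxd2 (-1.81) and Klrk1 (-2.01) passed without control 1 and Serpina1e (1.20) without control 2. With no filter, Plcxd2 (-1.55), Klrk1 (-1.60), Pim1 (-1.12) and Serpina1e (0.93) passed too. Arsb was at 0.041 in core nuclei, and Fkbp5 ran from -1.91 (without knockout 3) to 0.037 (without control 2); the cause was not tested. Over the 21 genes given with a fold change, 273 alternative values kept direction and call, 7 passed only under the alternative, 3 no longer passed and 2 reversed. The alternatives for core nuclei, the rule without Btla, the 7 genes, nuclei without other sets, thinned shares, the 250-gene floor and single genes with no filter were chosen after seeing the data. No paired analysis was possible because replicate numbers were given in accession order and pair no mice.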
